A study of Mus musculus with 7 samples.

Results

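Hematopoietic stem cells (HSC) were set against the CD150+CD48+ progenitors of the LSK gate, both sorted from the bone marrow of pMT-10 mice, across every gene of a targeted transcriptome. The comparison takes 3 of the 7 libraries of the series: 1 HSC library and 2 LSK CD150+CD48+ libraries. The tables hold 23930 genes, of which 11429 had enough counts to test. LSK stands for cells with the phenotype Lineage-, SCA-1+ and c-KIT+, the gate that holds the stem cells and the earliest multipotent progenitors of the mouse. The labels give the CD150+CD48+ gate for the LSK libraries, whereas for HSC they name the cell type without its sort markers.

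The pMT-10 mouse overexpresses the cytokine IL-10 from a transgene driven by a zinc-inducible metallothionein promoter. Zinc, given by drinking water over 15 days, is common to every group, the BL/6 controls included. The other 4 libraries are common myeloid progenitors (CMP), 2 from pMT-10 and 2 from BL/6 mice, and they serve here as reference points. No HSC or LSK library from BL/6 mice was analysed here, so the values below compare populations within pMT-10 mice and say nothing of the transgene's effect on them. The labels do not give ages, or how many animals each library came from.

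In the mouse, HSC of the LSK gate carry CD150 and lack CD48, while CD48 marks progenitors that have lost long-term self-renewal. LSK cells that carry both proteins include multipotent progenitors biased to megakaryocytes and red cells. CMP are the next step, lack SCA-1, and give rise to erythroid, megakaryocytic, granulocytic and monocytic cells.

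The 2 LSK libraries and both pMT-10 CMP libraries were sequenced on one chip, and the HSC library and both BL/6 CMP libraries on another. Population and chip therefore cannot be told apart in the comparison of HSC with LSK cells. For the genes described below, the BL/6 CMP libraries give a level measured on the chip that held the HSC library, in another cell type and strain. Library totals ran from 7372430 counts (HSC) to 13854314 counts (LSK replicate 2), with 8807636 in LSK replicate 1. The libraries of 1 group need not be alike in origin: transcripts of Xist, which marks the inactive X chromosome of females, had 2431 counts in LSK replicate 1, 2 in LSK replicate 2 and 959 in HSC. Counts of the Y-linked gene Ddx3y were 364, 1040 and 370 in the same order. LSK replicate 1 and the HSC library thus held transcripts of both sexes, and LSK replicate 2 held almost none of Xist. In the CMP libraries Xist had 11904 and 8140 counts (pMT-10) and 9308 and 8745 (BL/6), and Ddx3y 197 and 320 against 0 and 0. Strain, the IL-10 transgene, chip and sex-linked counts thus differ together between the CMP groups. All values rest on 1 short amplicon per gene without molecular identifiers, so counting errors are lower limits of the true error. Nothing in the labels says whether replicates came from separate mice, and p-values measure the spread between these libraries only.

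Differences were tested with edgeR's quasi-likelihood F-test on all 7 libraries, and a gene is called where its Benjamini-Hochberg adjusted p was under 0.05. The lone HSC library is assumed in that test to vary like the other groups. Of the 11429 genes tested, 2147 were called (18.8%), 1216 higher in HSC (10.6%) and 931 lower (8.15%). At an unadjusted p under 0.05 the number was 3986. The number moved with single libraries. It fell to 266 without LSK replicate 1 and to 352 without LSK replicate 2, rose to 4811 without either pMT-10 CMP replicate, and was 1134 and 1140 without BL/6 CMP replicates 1 and 2. A call is said below to hold where it was made in the fit of all libraries and in each of the 6 fits that left out 1 replicate. The lone HSC library is in all of these fits, so the rule cannot show how far a call rests on that library. By that rule 222 genes held (1.94% of those tested), 107 higher in HSC (0.936%) and 115 lower (1.01%).

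A second reading used no test. A difference was counted as large and well-counted where the HSC level lay at least 4-fold beyond the nearer LSK library, on CPM (counts scaled to the library total) plus 1, with at least 50 counts in each library of the higher group. This gave 355 genes (3.11%), 218 higher in HSC (1.91%) and 137 lower (1.2%). Of these, 353 were also called. Put against each other by the same rule, the 2 LSK libraries gave 2 genes (0.0175%), the BL/6 CMP pair 2 and the pMT-10 CMP pair 85 (0.744%). The SD of log2 differences over all tested genes was 0.356 between the LSK libraries, 0.639 in the pMT-10 CMP pair and 0.26 in the BL/6 CMP pair. Between HSC and LSK replicates 1 and 2 it was 0.96 and 0.929. HSC therefore stood farther from either LSK library than the 2 LSK libraries stood from each other. The HSC level lay 4-fold beyond all 6 other libraries for 141 genes that were higher (1.23%) and 49 that were lower (0.429%).

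**Figure D1:**
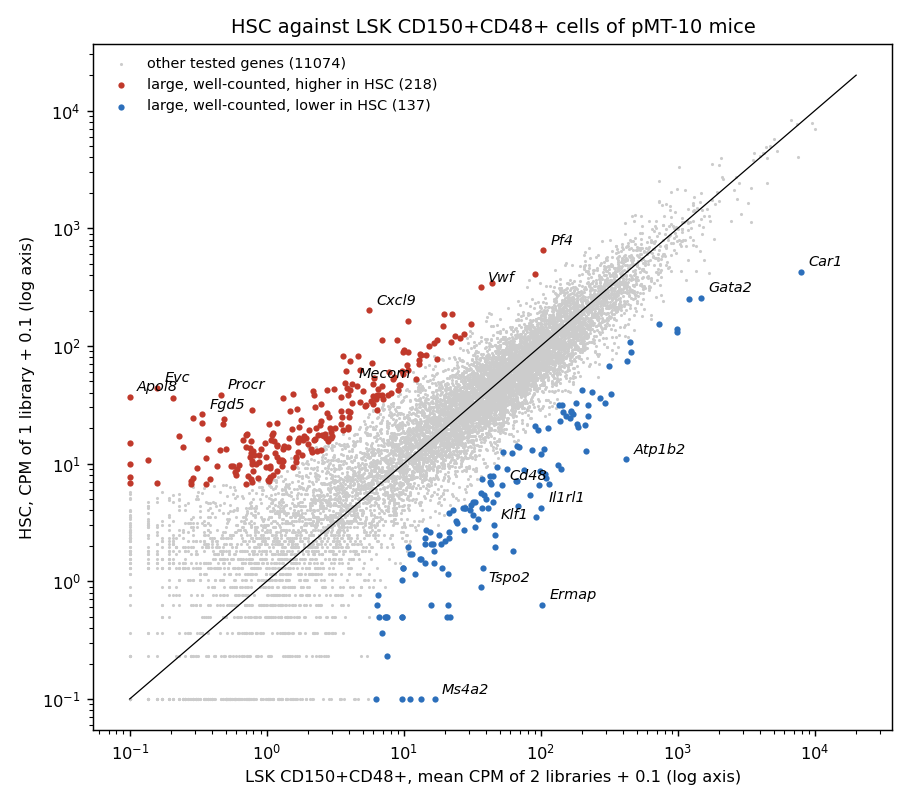
Each point is 1 of the 11429 tested genes, with the mean CPM of the 2 LSK CD150+CD48+ libraries on the x axis and the CPM of the HSC library on the y axis, both plus 0.1 on log axes. The line marks equal levels. The 218 red points (large, well-counted, higher in HSC) include Procr, Evc and Apol8 at the left edge, and the 137 blue points include Ermap, Tspo2 and Ms4a2 along the bottom.

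The genes that define the gates were read first. Ly6a, which encodes SCA-1, had 331 CPM in HSC and 326 and 249 CPM in LSK replicates 1 and 2. Kit, the receptor c-KIT, had 158 against 81.2 and 118 CPM, and Slamf1, which encodes CD150, had 89.3 against 53.3 and 59.9 CPM. None of these 3 was called (adjusted p = 0.806, 0.142 and 0.103). Cd48 had 6.49 CPM in HSC against 63.6 and 40.5 CPM in LSK cells, 8.03-fold lower than the LSK mean of 52.1 ± 16.3 CPM (SD, n = 2; adjusted p = 0.0048 in edgeR's fit). Its HSC level was also under all 4 CMP libraries, which had 17.9 to 79.5 CPM. The call of Cd48, which lies on chromosome 1 (171682009 to 171705258, mm10), ended without LSK replicate 1 (adjusted p = 0.0558). After the CMP difference between the same 2 chips was subtracted, in which strain and transgene differ as well, the log2 difference of Cd48 was -1.31 and not called (adjusted p = 0.124). Il10 itself had 1, 0 and 2 counts in HSC and the LSK replicates, all at or under the floor of 3 counts, and was not tested. Its receptor gene Il10ra had 3.44 CPM against 2.69 and 2.88 and was not called (adjusted p = 0.735).

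Stem cell genes made up the group with the most members higher in HSC. Of 47 tested members of a list of stem cell identity genes, 20 were called higher (42.6%, against 10.6% of all genes) and 2 lower, and the list's median log2 difference was 1.17 against 0.03 over all tested genes. Among the 20 called higher, HSC lay above all 6 other libraries for 19 (95%), beside 87.9% of all genes called higher. The calls of 8 members held: Procr, Mecom, Hlf, Esam, Robo4, Trpc6, Vwf and Ltb. The number called higher was 8 without LSK replicate 1, 11 without LSK replicate 2 and 32 without either pMT-10 CMP replicate.

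Procr, the endothelial protein C receptor by which repopulating stem cells are often sorted, had 291 counts in HSC (38.5 CPM), 0 in LSK replicate 1 and 10 in LSK replicate 2 (0.72 CPM). The log2 fold change was 6.46 ± 0.70 (SE; adjusted p = 0.00117), and the 4 CMP libraries had 1.11 to 2.2 CPM. Mecom, the transcription factor EVI1 that stem cells need to persist, had 47.6 CPM in HSC against 4.09 and 4.03 CPM, a log2 fold change of 3.55 ± 0.34 (adjusted p = 0.000738). For both genes the HSC value lay above both LSK values, which with 1 library against 2 carries little weight alone. Hlf, a transcription factor whose expression marks stem cells from the embryo onwards, had 77.7 CPM against 18.2 and 16.8 (log2 fold change 2.15 ± 0.26, adjusted p = 0.00157). Trpc6, a cation channel, had 148 CPM against 20.9 and 17.3 (log2 fold change 2.95 ± 0.26, adjusted p = 0.000552). In the other libraries both genes were within 11.1 to 25.2 CPM.

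Further members of the list were called higher. Esam, a junctional adhesion molecule, had 88.7 CPM in HSC and 9.7 and 9.72 in the LSK libraries (log2 fold change 3.19 ± 0.36, adjusted p = 0.00122). Robo4, a guidance receptor that anchors stem cells in the marrow, had 13.2 CPM against 0.584 and 0.216 (log2 fold change 5.11 ± 0.68, adjusted p = 0.00223). CMP levels of Robo4 are not given here, so it may have had enough counts to test in the HSC library alone. Tie1, an orphan receptor kinase of the angiopoietin system, had 85.1 CPM against 12.6 and 13.3 (log2 fold change 2.71 ± 0.36, adjusted p = 0.00212), a call that ended without LSK replicate 1 (adjusted p = 0.0558). Ltb, the membrane cytokine lymphotoxin beta, had 43.8 CPM against 2.34 and 5.11 (log2 fold change 3.51 ± 0.43, adjusted p = 0.00157). Fgd5, a guanine exchange factor used as a stem cell reporter gene, had 198 counts in HSC and 1 and 5 in the LSK libraries (log2 fold change 6.58 ± 0.95, adjusted p = 0.00332). That call ended when either LSK replicate was left out (adjusted p = 0.0742 and 0.0595).

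Not every gene of the stem cell list was higher. Gata2, a transcription factor active in stem cells and in mast cells and basophils, had 257 CPM in HSC against 1448 and 1512 in LSK cells. Its log2 fold change was -2.52 ± 0.35 (adjusted p = 0.0028), the call held, and pMT-10 CMP had a mean of 246 CPM. Mllt3, a chromatin reader linked to stem cell maintenance, had 7.01 CPM against 63.4 and 67.9, and ended as a call without LSK replicate 1 or 2 (adjusted p = 0.0794 and 0.0725). Mllt3 had 11.3 and 3.71 CPM in the pMT-10 CMP libraries, near the HSC level, and 35 and 56.1 CPM in BL/6 CMP, near the LSK level. Cd34, a sialomucin often low on long-term stem cells, was higher in HSC at 76.5 CPM against 21.4 and 29.9 (log2 fold change 1.57 ± 0.33, adjusted p = 0.0127). This call ended without LSK replicate 1 or 2 (adjusted p = 0.121 and 0.0662). Flt3, the receptor lost on stem cells and gained by lymphoid-primed progenitors, had 8 counts in HSC and 3 and 20 in LSK cells (adjusted p = 0.945).

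**Figure D2:**
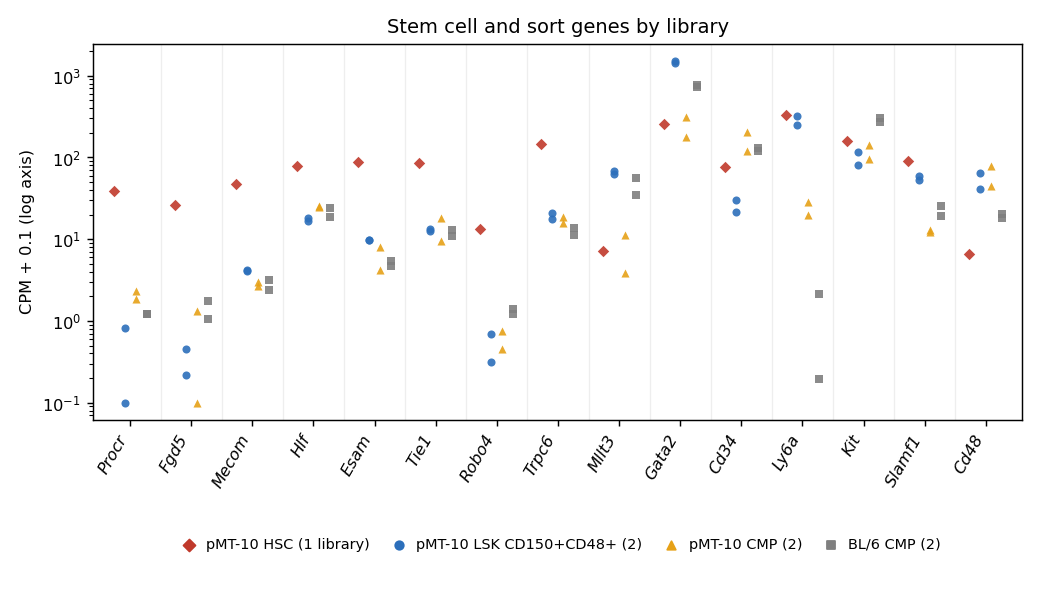
Level (CPM plus 0.1, log axis) of 15 stem cell and sort genes in every library, with 1 marker per library and a colour and shape per group. Procr, Fgd5, Mecom, Esam and Robo4 lie higher in the HSC library than in all 6 others, Ly6a, Kit and Slamf1 lie close to the LSK libraries, and Gata2 and Cd48 lie below them.

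Among the 12 largest increases, and outside that list, were Evc and Evc2, which encode partner proteins of the primary cilium that pass on Hedgehog signals. Evc had 332 counts in HSC and 1 and 0 in the LSK libraries, a ratio of 987 between depth-scaled counts (95% counting interval 176 to 39082, exact binomial). Evc2 had 185 counts against 2 and 2, a ratio of 137 (95% counting interval 52.8 to 510). In the 4 CMP libraries Evc had at most 0.242 CPM and Evc2 at most 0.221 CPM, which is 3 counts or fewer, so that the HSC library alone held either gene above the floor of 3 counts. They passed the count filter through that 1 library, so their calls are not given as support. They are neighbours on chromosome 5 (Evc at 37289098 to 37336894 on the minus strand, Evc2 at 37338499 to 37425055 on the plus strand, mm10), head to head, with RefSeq start sites 1597 bases apart. Their upstream sequences are shown because the pair shares this one interval: 250 bases before each start site from RefSeq, build GRCm38.p6, 5′ to 3′ on each gene's own strand. Capitals mark the longest run the 2 sequences share, found by comparing them on both strands.
Evc, chr5:37336882-37337131, minus strand: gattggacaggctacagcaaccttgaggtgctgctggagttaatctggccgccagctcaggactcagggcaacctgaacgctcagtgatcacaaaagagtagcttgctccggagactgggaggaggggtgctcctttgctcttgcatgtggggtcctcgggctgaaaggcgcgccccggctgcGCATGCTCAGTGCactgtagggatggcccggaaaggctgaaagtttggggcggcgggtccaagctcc
Evc2, chr5:37338228-37338477, plus strand: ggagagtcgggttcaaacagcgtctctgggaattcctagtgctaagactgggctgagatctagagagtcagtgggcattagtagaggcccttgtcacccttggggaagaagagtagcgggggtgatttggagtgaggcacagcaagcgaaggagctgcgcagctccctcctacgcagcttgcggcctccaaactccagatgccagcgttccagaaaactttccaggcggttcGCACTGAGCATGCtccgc
The shared run, GCATGCTCAGTGC in Evc and its reverse complement in Evc2, is 13 bases long and lies 67 to 55 bases before the start of Evc and 18 to 6 bases before that of Evc2. On either strand it occurs in 7 of 27025 promoters of this length (0.0259%), these included. It was looked for after the values of the pair were known and is a description of the letters only.

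Apol8, of the apolipoprotein L family, had 279 counts in HSC and 0 in both LSK libraries, at least 105-fold higher against a floor of 3 counts per library (adjusted p = 0.000975), with 4.52 and 12.5 CPM in pMT-10 CMP. Myof, a ferlin of membrane repair, had 274 counts against 0 and 3, a ratio of 271 (95% counting interval 91.9 to 1324; adjusted p = 0.000397). AY761185 (168 counts against 1 and 5) and Spata25 (180 against 3 and 6) had log2 fold changes of 6.34 ± 0.74 and 5.86 ± 0.70 (adjusted p = 0.00141 and 0.00151), with 1.43 to 4.29 and 0.646 to 4.98 CPM in the CMP libraries. The calls of Apol8, Myof, AY761185 and Spata25 held. Zfp827, Appl2 (an endosomal adaptor) and Ppp1r16b (a regulatory subunit of protein phosphatase 1) had 21.6, 28.6 and 38.8 CPM in HSC. Their LSK levels were at most 0.468, 1.01 and 2.45 CPM, and their calls (adjusted p = 0.00447, 0.0019 and 0.0106) ended without LSK replicate 1 (adjusted p = 0.0782, 0.0508 and 0.0716). Without LSK replicate 2, Zfp827 and Ppp1r16b ended as well (adjusted p = 0.0771 and 0.107), and Ppp1r16b also ended without either BL/6 CMP replicate (adjusted p = 0.0883 and 0.0865). For the 6 genes of this paragraph other than Apol8 the HSC level was over 4 times that of every other library, and for Apol8 it was about 3 times that of pMT-10 CMP replicate 2.

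Megakaryocyte and platelet genes moved one way. Of 32 tested members of that list 13 were called higher in HSC (40.6%, against 10.6% of all genes) and 0 lower by edgeR. At an unadjusted p under 0.05 the number lower was 1, and by DESeq2 and limma-voom it was 0. The list's median log2 difference was 0.85. For all 13 the HSC level lay above all 6 other libraries, as it did for 87.9% of all genes called higher. The calls of Vwf, Pf4, Selp and Mmrn1 held. The number called higher was 4 and 7 without LSK replicates 1 and 2, and 20 and 19 without pMT-10 CMP replicates 1 and 2, where 3 and 2 members were called lower.

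Vwf, von Willebrand factor, the platelet adhesion protein whose gene is also active in a platelet-biased share of stem cells, had 315 CPM in HSC against 34.5 and 38 in LSK cells. The log2 fold change was 3.12 ± 0.23 (adjusted p = 0.000267), and the 4 CMP libraries had 21.6 to 37.2 CPM. Pf4, the platelet chemokine CXCL4, had 651 CPM against 99.4 and 109, with 61.2 to 225 CPM in CMP (log2 fold change 2.64 ± 0.29, adjusted p = 0.00121). Selp, the granule adhesion molecule P-selectin, had 69.5 CPM against 14.7 and 10.9 (log2 fold change 2.44 ± 0.28, adjusted p = 0.00138). Mmrn1, a granule protein that binds factor V, had 60.4 CPM against 10.2 and 5.25, and 0 in both BL/6 CMP libraries (log2 fold change 2.99 ± 0.41, adjusted p = 0.00365). Itga2b, the integrin CD41, had 1160 CPM against 527 and 435 (log2 fold change 1.27 ± 0.25, adjusted p = 0.0114) and ended as a call without LSK replicate 1 or 2 (adjusted p = 0.0776 and 0.0923). Of the list, 19 members were not called, among them Gp9 (154 counts against 102 and 173, adjusted p = 0.272) and Gp1ba (27 against 32 and 64, adjusted p = 0.789), both subunits of the receptor for von Willebrand factor.

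Erythroid genes were the group with the most members lower in HSC. Of 33 tested members 19 were called lower (57.6%, against 8.15% of all genes) and 1 higher, and the median log2 difference was -1.80. For all 19, HSC lay below all 6 other libraries, as it did for 80.8% of all genes called lower. The calls of 13 held, among them Klf1, Car1, Ank1, Add2, Rhag, Rhd, Ermap, Tspo2, Aqp1, Blvrb, Cpox and Mfsd2b. With a replicate left out, 13 to 23 members were called lower. Summed over the list's measured members, the level was 4195 CPM in HSC, 12544 and 15479 in LSK replicates 1 and 2 and 14154 to 20651 in the CMP libraries. In RNA from a sorted population, fewer cells of a kind and less RNA per cell cannot be told apart.

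Klf1, the transcription factor that drives red cell genes, had 2.91 CPM in HSC against 42.6 and 47.7 in LSK cells (log2 fold change -3.95 ± 0.43, adjusted p = 0.00117). Gata1, its partner in erythroid cells, differed less, at 166 CPM against 211 and 316, and was not called (adjusted p = 0.157). Car1, carbonic anhydrase 1, was among the most abundant erythroid transcripts of LSK cells, with 7063 and 8873 CPM against 426 in HSC (log2 fold change -4.23 ± 0.31, adjusted p = 0.000267). Membrane and blood group genes fell with it. Ank1, the ankyrin of the red cell skeleton, had 61 counts in HSC against 859 and 1560 (log2 fold change -3.72 ± 0.27, adjusted p = 0.000267). Add2, beta adducin of the same skeleton, had 7.01 CPM against 55.5 and 78.9 (log2 fold change -3.26 ± 0.33, adjusted p = 0.000866). Rhag, of the Rh complex, had 12.2 CPM against 52.3 and 71.7 (adjusted p = 0.0019). Ermap, an erythroblast membrane protein, had 4 counts in HSC against 759 and 1613 in LSK cells and 6.26 to 221 CPM in CMP (log2 fold change -7.56 ± 1.12, adjusted p = 0.00357). Tspo2, a translocator protein of red cells, had 6 counts against 312 and 503, and 22.4 to 33.3 CPM in CMP (log2 fold change -5.49 ± 0.45, adjusted p = 0.000397). Genes of heme handling differed among themselves. Blvrb, biliverdin reductase B, had 40.2 CPM against 215 and 257, and Cpox, of heme synthesis, 41 against 118 and 167 (adjusted p = 0.00149 and 0.00522). Fech, the enzyme that inserts the iron of heme, had 0 counts in HSC and 10 and 16 in LSK cells, at least 2.92-fold lower (adjusted p = 0.0421). Its call ended without LSK replicate 1 (adjusted p = 0.131), replicate 2 (0.119) or a BL/6 CMP replicate (0.0894 and 0.0881).

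Surface receptors of early erythroid cells stood nearer. Epor, the erythropoietin receptor, had 77.6 CPM against 178 and 169, and Tfrc, the transferrin receptor, 25.7 against 49.4 and 54.3 (log2 fold changes -1.16 ± 0.25 and -1.02 ± 0.23, adjusted p = 0.0156 and 0.0179). Both calls ended without LSK replicate 1 (adjusted p = 0.102 and 0.0795) or replicate 2 (0.0768 and 0.0858), and that of Tfrc without BL/6 CMP replicate 1 (0.0512). The one member called higher in HSC was Alas2, the erythroid enzyme of the first step of heme synthesis, with 34 counts against 3 and 6 (adjusted p = 0.0118), a call that ended without LSK replicate 1 or 2 (adjusted p = 0.1 and 0.0843).

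The upstream sequence of Klf1 is shown because the gene is the regulator in this group. It is the 250 bases before the RefSeq start site, build GRCm38.p6, with a match to GATAAG, a form of the sequence that GATA factors bind, in capitals (on the minus strand, so that it reads as its reverse complement).
Klf1, chr8:84901732-84901981, plus strand: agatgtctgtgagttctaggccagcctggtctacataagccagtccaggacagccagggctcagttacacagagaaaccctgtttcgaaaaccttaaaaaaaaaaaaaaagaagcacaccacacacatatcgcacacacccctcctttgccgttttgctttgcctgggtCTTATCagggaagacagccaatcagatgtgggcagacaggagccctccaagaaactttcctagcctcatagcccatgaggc
The match lies 81 to 76 bases before the start. GATAAG was searched after the form AGATAA and the sequence CCACACCC had given no match in the promoters printed here, on either strand. GATAAG occurs in 6.6% of all 27025 promoters of this length. It was present in 8 of the 98 promoters found for the 137 large, well-counted genes lower in HSC (8.16%) and in 5 of 151 for the 218 higher (3.31%). For AGATAA, which can overlap it, the shares were 10.3% of all, 8.16% of the lower and 11.3% of the higher genes, so the 2 forms of the motif do not give the same order.

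Genes of basophils, mast cells and eosinophils were lower as well. Of 23 tested members of the list 11 were called lower (47.8%, against 8.15% of all genes) and 1 higher, with a median log2 difference of -1.75. Another 10 measured members had too few counts to test. The calls of Ms4a2, Il1rl1, Siglecf, Itgb7 and Gata2 held, Gata2 being also on the stem cell list, and 5 and 6 members were called lower without LSK replicates 1 and 2. Ms4a2, which encodes an IgE receptor subunit of mast cells and basophils, had 0 counts in HSC and 178 and 176 in the LSK libraries, at least 42.2-fold lower (adjusted p = 0.00211). Il1rl1, the IL-33 receptor ST2, had 4.1 CPM in HSC against 91.4 and 109 (log2 fold change -4.61 ± 0.39, adjusted p = 0.000426). Siglecf, a sialic acid receptor of eosinophils, had 3.31 CPM against 33.5 and 35.9 (log2 fold change -3.39 ± 0.34, adjusted p = 0.000866). All 4 CMP libraries had more Ms4a2 (8.5 to 168 CPM), Il1rl1 (61.2 to 99.9) and Siglecf (16.3 to 44.2) than HSC. Itgb7, an integrin of mast cell progenitors, had 20 CPM in HSC against 115 and 110, and its CMP levels of 16.4 to 22.8 CPM were like that of HSC. Hdc, which makes histamine, had 0 counts in HSC and 31 and 29 in LSK cells, at least 7.19-fold lower, and Cpa3, a granule carboxypeptidase, had 6.35 CPM against 29.7 and 27.8. Their calls (adjusted p = 0.012 and 0.00681) ended without LSK replicate 1 (adjusted p = 0.0761 and 0.0683), and that of Cpa3 also without replicate 2 (0.0556).

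For this list the reference libraries on the same 2 chips moved with the comparison. Of the 11 members called lower, 8 were also lower in BL/6 than in pMT-10 CMP by the same test. Among all 931 genes called lower this held for 172, and over all tested genes 14.3% were lower in BL/6 CMP. In that contrast strain, transgene, chip and sex-linked counts differ together. After that difference was subtracted, 4 of the 11 were still called lower. For the erythroid list 18 of 19 were still called lower after the same subtraction, for the stem cell list 15 of 20 higher, and for the megakaryocyte list 10 of 13. Over all genes, 557 of the 1216 called higher and 545 of the 931 called lower were still called in the same direction. The part of chip, strain, transgene and sex in the lower basophil and mast cell genes was not tested beyond this.

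**Figure D3:**
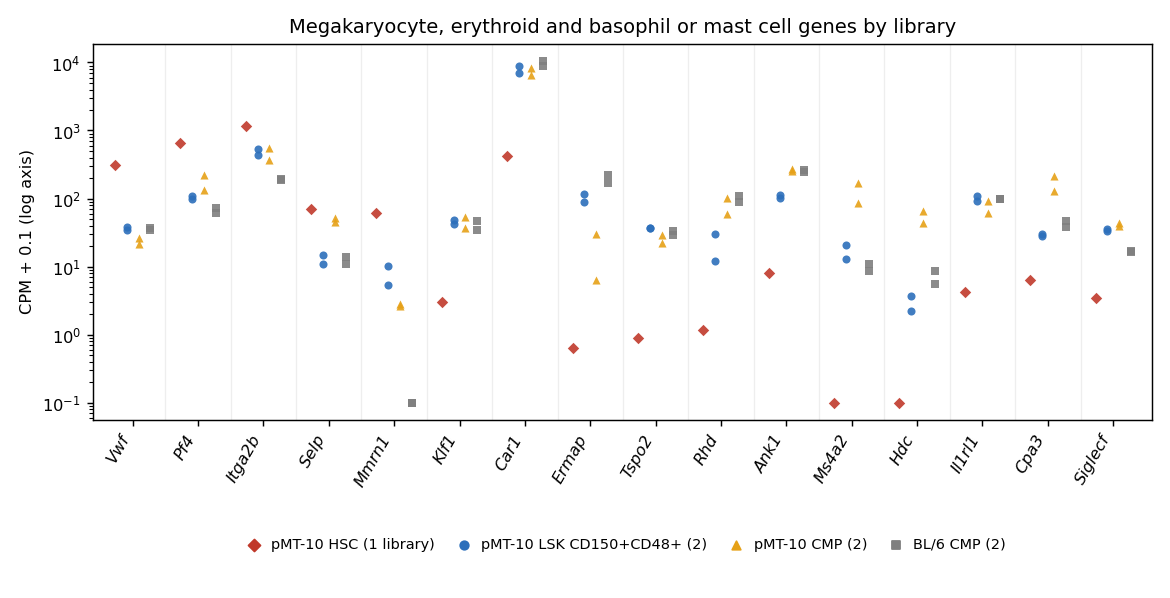
Level (CPM plus 0.1, log axis) of 16 megakaryocyte, erythroid and basophil or mast cell genes in every library, with 1 marker per library. HSC lies highest for Vwf, Pf4, Itga2b, Selp and Mmrn1 and lowest for all 11 others, and Ms4a2 and Hdc sit at the bottom of the axis in HSC because they had 0 counts.

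Of the 12 largest decreases among abundant genes, 4 belong to the erythroid or the basophil and mast cell list (Ermap, Tspo2, Rhd and Il1rl1). Rhd, the other blood group gene of the Rh complex, had 8 counts in HSC against 101 and 418 (log2 fold change -4.31 ± 0.78, adjusted p = 0.00749). DESeq2 called Rhd as well (adjusted p = 1.37e-07), while limma-voom did not (adjusted p = 0.0668). Atp1b2, a beta subunit of the sodium pump, had 10.9 CPM in HSC, 393 and 445 in LSK cells and 430 to 510 in CMP (log2 fold change -5.27 ± 0.30, adjusted p = 0.000196). Slc38a5, an amino acid transporter, had 1.85 CPM against 35.9 and 56.5, and Prss50, a serine protease, 1.19 against 28.1 and 47.6 (adjusted p = 0.00382 and 0.000926). St8sia6, a sialyltransferase, had 3 counts against 152 and 350, a ratio of 0.0178 (95% counting interval 0.00365 to 0.0522; adjusted p = 0.000866). For each of these genes HSC lay lowest of all 7 libraries. Fzd7 (a Wnt receptor), Chuk (the kinase IKK alpha), Trpc4ap and Dok1 (a signalling adaptor) had 0.397, 0.529, 1.72 and 2.38 CPM in HSC against LSK means of 20.5, 21, 62.8 and 46 CPM. In these 4 and in Ermap the pMT-10 CMP mean, which was 4.12, 1.61, 2.13, 4.59 and 18 CPM in turn, also lay under 25% of the LSK mean. HSC and pMT-10 CMP were thus both low beside LSK cells there, while Fzd7 and Ermap had 17.6 and 30.5 and 168 and 221 CPM in the BL/6 CMP libraries. The pMT-10 CMP mean lay as low for 39 of the 137 large, well-counted genes lower in HSC. The share over all tested genes was not taken, so whether that count is unusual is not known. The calls of Fzd7 and Chuk ended without LSK replicate 1 (adjusted p = 0.0759 and 0.0662) or replicate 2 (0.054 for both), and the other 10 of the 12 held.

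Markers of other marrow cells were checked beside these groups, and their part in the results was not tested. Of 43 measured lymphoid genes 15 had 0 counts in HSC and both LSK libraries, Cd3e of T cells among them, and 28 had too few counts to test. Of the 15 tested, 4 were called higher in HSC (26.7%, against 10.6% of all genes) and 3 lower (20%, against 8.15%). Summed levels over the list were 630 CPM in HSC against 593 and 525. Those higher were Xbp1 (357 CPM against 116 and 140), Thy1 (145 counts against 27 and 54), Cd79b (395 against 132 and 233) and Klrb1c (37 against 1 and 2). Those lower were Nkg7 (739 counts against 2961 and 3669), Gzmb (16 against 103 and 139) and Satb1 (13 against 52 and 68). Xbp1, a factor of the unfolded protein response and plasma cells that other cells also express, was the one whose call held (log2 fold change 1.48 ± 0.21, adjusted p = 0.00295), and without LSK replicates 1 and 2 the list had 1 and 2 members higher and 0 and 1 lower. Of 25 stromal and endothelial genes 5 had 0 counts in the 3 libraries, Cdh5 and Col1a1 among them, and 14 were tested, with summed levels of 1010 CPM against 781 and 685. Called higher were Emcn, Vwf, Lpl (80 counts against 10 and 17) and Alpl (26 against 1 and 1), and lower Pdgfrb (72 against 349 and 554). Klrb1c, Emcn and Alpl were low in both LSK libraries, and their CMP levels are not given here. Each may have passed the count filter through the HSC library alone. Emcn, endomucin, a sialomucin of endothelium and stem cells, had 17.5 CPM against 0.701 and 0.504 (log2 fold change 4.87 ± 0.58, adjusted p = 0.00151), and its call and that of Vwf held, while 2 members were higher without either LSK replicate.

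Myeloid markers gave calls in both directions, beside 10.6% called higher and 8.15% lower over all tested genes. Among 29 tested neutrophil and granule genes 6 were higher (20.7%) and 2 lower (6.9%). Summed levels were 3989 CPM in HSC, 2344 and 2727 in LSK cells and 2497 to 5352 in CMP. Called higher were Lyz2, Prtn3 (695 counts against 256 and 380), Csf3r, the G-CSF receptor (48 against 1 and 7), Gfi1 (17 against 4 and 4), Hk3 (59 against 33 and 27) and Srgn (16228 against 7210 and 15842). Called lower were Cebpa (18 counts against 104 and 123) and Clec12a (0 against 21 and 17). The granule enzymes Mpo (2 counts against 27 and 16, adjusted p = 0.074) and Elane (27 against 60 and 59, adjusted p = 0.424) were not called. Lyz2, lysozyme, had 319 CPM against 67.9 and 89.5 (log2 fold change 2.02 ± 0.23, adjusted p = 0.00134) and was the one whose call held, with 1 and 2 members higher without LSK replicates 1 and 2. Of 38 monocyte, macrophage and dendritic genes 8 had 0 counts in the 3 libraries, Adgre1 among them. Of the 19 tested 4 were higher (21.1%: Lyz2, Ctss, Irf8 and Ms4a6c) and 2 lower (10.5%: Cx3cr1 and Zbtb46). Ctss, cathepsin S, had 37 counts in HSC and 0 in both LSK libraries, at least 14-fold higher (adjusted p = 0.00281). Its CMP levels are not given here, so it may have passed the count filter through the HSC library alone. Zbtb46, a factor of dendritic cells that erythroid progenitors also express, had 1.59 CPM against 9.82 and 12.9 (adjusted p = 0.00357). The calls of Lyz2, Ctss and Zbtb46 held, and 2 members were higher without either LSK replicate.

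Interferon and antigen presentation genes were abundant in both populations, and the lists as wholes did not separate them. Over all tested genes 10.6% were called higher in HSC and 8.15% lower. Of 32 tested interferon-gamma response genes 5 were called higher in HSC (15.6%) and 4 lower (12.5%), with a median log2 difference of -0.14, and with a replicate left out 1 to 9 were higher and 0 to 11 lower. Of 34 antigen presentation genes 1 was higher (2.94%) and 3 lower (8.82%), with a median of -0.05. Of 34 type I interferon genes 6 were higher (17.6%) and 4 lower (11.8%), with a median of -0.09. In these 3 lists the calls of Cxcl9, Ctss and Tapbp held. Cd74, the invariant chain of class II, had 2102 CPM in HSC against 1361 and 889, and H2-Eb1, a class II chain, 797 against 952 and 595 (adjusted p = 0.087 and 0.936). Irf1, a transcription factor induced by interferon, had 626 CPM against 661 and 585 (adjusted p = 0.988). Cxcl9 is a chemokine induced by interferon-gamma that attracts T cells. It had 1520 counts in HSC (201 CPM) against 47 and 76 counts in LSK cells (5.49 and 5.47 CPM), at most 4.06 CPM in pMT-10 CMP and 0.185 in BL/6 CMP. Its log2 fold change was 5.19 ± 0.42 (adjusted p = 0.000397), and the call held.

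The upstream sequence of Cxcl9 is shown because it was the interferon-gamma response gene whose call held: 250 bases before its RefSeq start site on chromosome 5, build GRCm38.p6.
Cxcl9, chr5:92328080-92328329, minus strand: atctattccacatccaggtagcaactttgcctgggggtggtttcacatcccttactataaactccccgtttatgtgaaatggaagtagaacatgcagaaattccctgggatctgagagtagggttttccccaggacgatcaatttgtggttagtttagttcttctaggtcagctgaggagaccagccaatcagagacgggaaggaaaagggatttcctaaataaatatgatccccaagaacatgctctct
No letters are in capitals, since neither TTCNNNGAA (a form bound by STAT factors, found in 7.18% of all promoters of this length) nor a pair of GAAA runs with 2 bases between them (a form bound by interferon regulatory factors, 3.04%) occurs in this window on either strand. This says only that these letters are not in these 250 bases. Other forms of either site were not searched, so the window may hold interferon response sequences of another form.

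Related genes differed less. Cxcl10, a chemokine of the same family, had 105 CPM in HSC against 30.6 and 28.2 (log2 fold change 1.83 ± 0.41, adjusted p = 0.0172), and Serpina3g, a protease inhibitor, 3971 against 2198 and 1924 (0.95 ± 0.23, adjusted p = 0.0227). Both calls ended without LSK replicate 1 (adjusted p = 0.132 and 0.104) or 2 (0.133 and 0.128), and that of Serpina3g also without either BL/6 CMP replicate (0.0746 and 0.0794). Tapbp, tapasin, which loads peptides on class I, was lower in HSC at 436 CPM against 1449 and 1246 (log2 fold change -1.63 ± 0.23, adjusted p = 0.00331), and that call held. Isg20, an antiviral exonuclease, had 72.7 CPM against 285 and 215, and Zbp1, a sensor of left-handed nucleic acids, 52.7 against 121 and 106 (adjusted p = 0.00465 and 0.0153). Both ended as calls without LSK replicate 1 (adjusted p = 0.0524 and 0.105), and Zbp1 without replicate 2 (0.0663). Ifngr1, a chain of the interferon-gamma receptor, had 150 CPM against 348 and 474 (adjusted p = 0.0327). Its call ended without LSK replicate 1 (adjusted p = 0.11), replicate 2 (0.16) or either BL/6 CMP replicate (0.06 and 0.0583). Ifngr2, the other chain, was not called, at 9.13 CPM against 17.8 and 21.2 (adjusted p = 0.123). The BL/6 CMP libraries on the chip of the HSC had low levels of many of these genes, 5.82 and 5.25 CPM for Zbp1, and came from mice without the transgene. With the CMP difference subtracted, the value also holds the gap between the CMP groups and is no longer a difference between HSC and LSK cells alone. In that value 18 of the interferon-gamma and 21 of the antigen presentation genes were called positive, beside 1134 of all 11429 tested genes. H2-Eb1, with a log2 difference of 0.04 between HSC and LSK cells, had 9.035. The direction of Isg20 and Zbp1 turned. Chip, strain, transgene and the sexes held by the libraries cannot be told apart in that value.

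**Figure D4:**
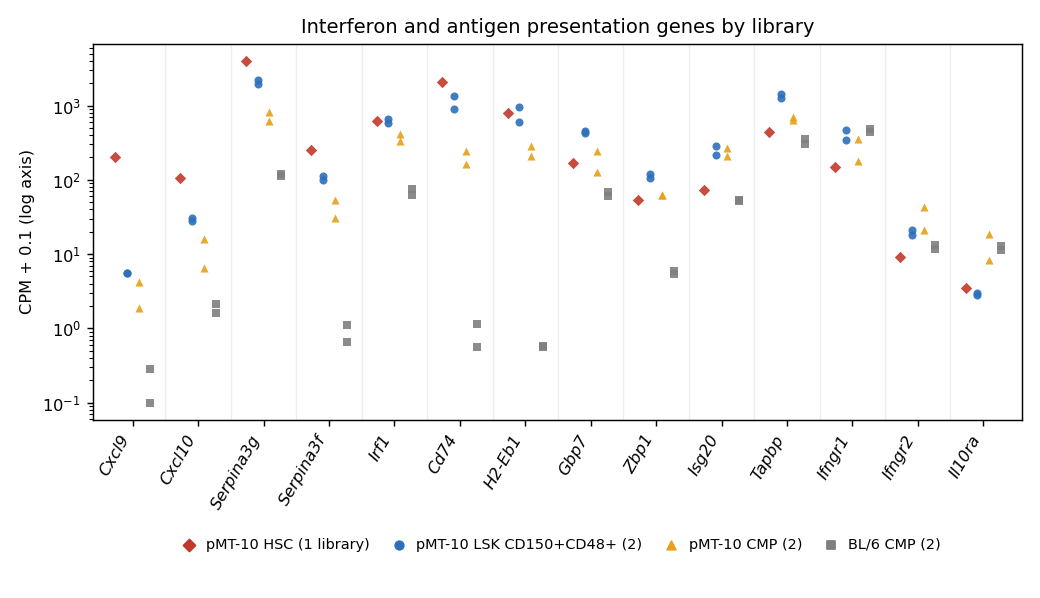
Level (CPM plus 0.1, log axis) of 14 interferon, antigen presentation and receptor genes in every library, with 1 marker per library. Cxcl9 is the gene for which HSC (201 CPM) stands farthest above the LSK libraries (5.49 and 5.47 CPM), while Irf1, Cd74 and H2-Eb1 lie near them, and the BL/6 CMP libraries lie lowest for most genes shown.

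Cell cycle genes gave few calls, beside 10.6% called higher and 8.15% lower over all tested genes. Of 55 tested genes of the cycle and DNA replication 2 were called higher in HSC (3.64%) and 7 lower (12.7%, against 8.15% of all genes), with a median log2 difference of -0.41, and none of the 9 calls held. Leaving out a pMT-10 CMP replicate gave 24 and 23 lower, and leaving out an LSK replicate ended all 7. Mki67, the proliferation antigen Ki-67, had 67.4 CPM in HSC against 108 and 173 (log2 fold change -1.06 ± 0.32, adjusted p = 0.0486), Aurkb, a mitotic kinase, 93.6 against 192 and 197 (adjusted p = 0.0181), and Cdk2, the kinase of entry into S phase, was higher at 340 CPM against 168 and 167 (adjusted p = 0.0123). These calls ended without LSK replicate 1 (adjusted p = 0.0716, 0.0988 and 0.095) or 2 (0.204, 0.0877 and 0.0807), and that of Mki67 without either BL/6 CMP replicate (0.0797 and 0.074). Among 28 inhibitors and quiescence genes 5 were higher (17.9%) and 8 lower (28.6%, against 8.15% of all genes), again with none held. Without LSK replicates 1 and 2 the higher ones were 0 and 1, and no lower call was left. Those lower include Btg1, an antiproliferation factor (28.1 CPM against 87.4 and 81.2), Foxo3, a factor of quiescence (88.5 against 210.3 and 179), Txnip (124 against 327 and 414) and Ccng2 (19.5 against 38.9 and 63.2). Cdkn1c, the inhibitor p57 known from quiescent stem cells, had 77 counts against 20 and 30 (log2 fold change 2.18 ± 0.48, adjusted p = 0.0158), a call that ended without LSK replicate 1 (adjusted p = 0.106), LSK replicate 2 (0.101) or BL/6 CMP replicate 2 (0.0509). Ndn, necdin, a growth suppressor, had 51 counts against 1 and 0, a ratio of 152 (95% counting interval 26 to 6102). Ndn had at most 1 count in LSK cells and at most 0.116 CPM in the CMP libraries, so the HSC library alone held it above the floor, and its call is not given as support. It is counted among the 5 called higher.

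Of 26 immediate early and heat shock genes, which also respond to cell handling, 5 were called higher in HSC (19.2%, against 10.6% of all genes), and none of the 5 calls held. By edgeR 0 were called lower (1 at an unadjusted p under 0.05, 0 by DESeq2 and 0 by limma-voom), and the median was 0.33. Zfp36, an mRNA decay factor, had 133 CPM against 22 and 38.8, and Junb, an AP-1 subunit, 359 against 171 and 178 (adjusted p = 0.00623 and 0.0137). Both ended as calls without LSK replicate 1 (adjusted p = 0.0745 and 0.108), and Junb without replicate 2 (0.0833). The part of handling in the other differences was not tested.

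Metabolic lists differed in single genes. Pklr, the pyruvate kinase of red cells and liver, had 9.66 CPM in HSC against 121 and 147 (log2 fold change -3.80 ± 0.28, adjusted p = 0.000267; held), and 433 to 567 CPM in CMP. Pkm, which encodes the other pyruvate kinase, had 1681 CPM against 870 and 591 (log2 fold change 1.20 ± 0.25, adjusted p = 0.0137), a call that ended without LSK replicate 2 (adjusted p = 0.0833). The pyruvate kinase genes thus differed in opposite directions. Ldhb, of lactate dehydrogenase, had 154 counts against 13 and 24 (log2 fold change 3.63 ± 0.51, adjusted p = 0.00279) and ended without LSK replicate 1 or 2 (adjusted p = 0.0587 and 0.0528). In all, 7 of 19 glycolysis genes were called higher (36.8%, against 10.6% of all genes) and 1 lower. Of 76 oxidative phosphorylation genes 8 were higher (10.5%, near the share of all genes) and 1 lower. Without LSK replicates 1 and 2 the glycolysis genes called higher were 1 and 0, and those of oxidative phosphorylation 1 and 3. Cox4i2, a cytochrome c oxidase subunit tied to low oxygen, had 15.9 CPM in HSC against 0.935 and 1.01 in LSK cells and at most 1.04 in CMP. It is counted among the 8 called higher, but passed the count filter through the HSC library alone, so its call is not given as support. Of 20 tested genes of hypoxia, zinc and redox 2 were higher (10%) and 3 lower (15%, against 8.15% of all genes). Mt1, a zinc-induced metallothionein, had 182 CPM in HSC against 433 and 532 and 648 to 730 in CMP (adjusted p = 0.00568), a call that ended without LSK replicate 2 (adjusted p = 0.0507). Gclm, of glutathione synthesis, had 105 CPM against 311 and 376 (adjusted p = 0.00252; held).

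Homing and progenitor genes divided, beside 10.6% called higher and 8.15% lower over all tested genes. Of 30 adhesion genes 9 were called higher in HSC (30%) and 6 lower (20%). The calls of 4 of those higher held, and none of the lower calls did. The integrin chains Itgal and Itga4, for binding ICAM and VCAM molecules, were lower at 27.3 CPM against 186 and 146 and at 153 against 418 and 448 (adjusted p = 0.00437 and 0.00628). Their calls ended without LSK replicate 1 (adjusted p = 0.0589 and 0.0575), and Itga4 without replicate 2 (0.0556). In the list of multipotent progenitor genes 4 of 19 were higher (21.1%) and 5 lower (26.3%). Il12a, a subunit of IL-12 and IL-35, had 75.6 CPM against 12.9 and 12.7 (log2 fold change 2.57 ± 0.28, adjusted p = 0.00117; held). Lgals1, galectin-1, had 31.5 CPM against 184 and 254 (log2 fold change -2.80 ± 0.29, adjusted p = 0.00102; held). Among 35 cytokine receptor and signalling genes 6 were higher (17.1%) and 7 lower (20%), and none of the lower calls held. Il1r1, the IL-1 receptor, had 9.26 CPM against 1.05 and 0.72 (log2 fold change 3.41 ± 0.46, adjusted p = 0.00251; held), close to the 8.5 and 10.8 CPM of BL/6 CMP. Csf2rb, the shared chain of the IL-3, IL-5 and GM-CSF receptors, had 82.3 CPM against 194 and 146 (adjusted p = 0.0258). Its call ended without LSK replicate 1 (adjusted p = 0.14), replicate 2 (0.0586) or BL/6 CMP replicate 1 or 2 (0.0544 and 0.051), and Csf2rb and its near copy Csf2rb2 could exchange reads. Of 12 Hox and Meis genes 2 were called higher (0 to 6 with a replicate left out), of 24 apoptosis genes 2 were higher and 6 lower, and of 21 ribosomal protein genes 2 were higher, with no call of these 3 lists held.

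**Figure D5:**
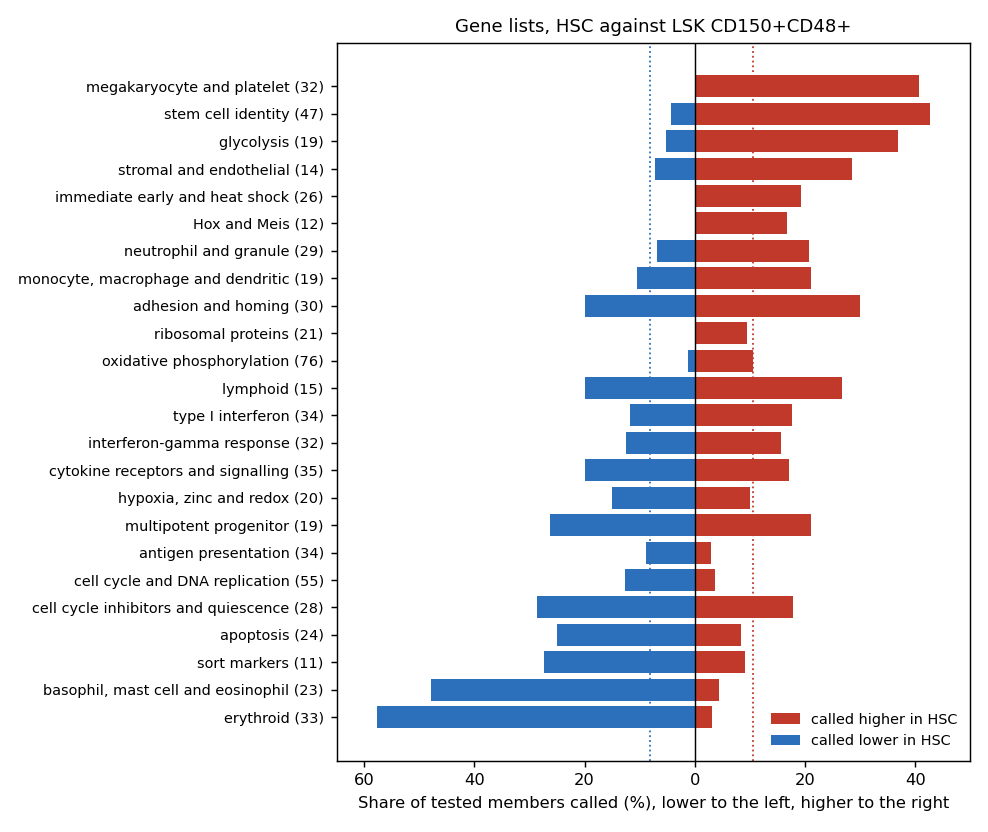
Share of the tested members of each of 24 gene lists (number tested in brackets) called higher in HSC (red, to the right) or lower (blue, to the left), with the shares over all tested genes as dotted lines (10.6% higher, 8.15% lower). The stem cell (42.6%) and megakaryocyte (40.6%) lists reach farthest to the right and the erythroid list (57.6%) farthest to the left.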

How the data were processed

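Per the labels' protocols, total RNA of sorted cells went into an amplicon kit for the mouse transcriptome (Ion AmpliSeq). The values are raw counts per gene as deposited by the authors, 1 table per chip. The submitters' processing notes name the build mm10. Aligner and counting program: not given in the sources used here. A sequence or splice variant under the 1 amplicon of a gene can change its count without a change in expression.

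The analysis used edgeR 4.0.16 under R 4.3.3: filterByExpr (minimum count 10), TMM scaling, 1 fit of 7 libraries in 4 groups (3 residual degrees of freedom), robust quasi-likelihood F-tests. Adjusted p-values are over all tested genes. CPM values use TMM-scaled totals, and "±" is the SE of the log2 fold change. The scripts were tested on simulated data. Alternatives used DESeq2 1.42.0, limma 3.58.1, other filters, scaling, samples and depth. For a gene at 0 counts in a group the fold is a lower bound, computed from a floor of 3 counts per library. Ratios of counts use exact binomial 95% intervals of counting error.

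The comparison and the 24 gene lists were chosen with earlier results of these data known. Named genes were the 12 largest increases and 12 largest decreases among called, large and well-counted genes with at least 20 CPM in the higher group, up to 4 called members per list with the smallest p, and a fixed set. RIKEN and Gm names were left out. Genes named outside that rule were chosen after their values were seen: Tie1, Ltb, Mllt3, Mmrn1, Gp9, Gp1ba, Aqp1, Blvrb, Cpox, Mfsd2b, Rhag, Alas2, Epor, Tfrc, Hdc, Cpa3, Pkm, Itgal, Itga4, Csf2rb, Csf2rb2, Fech, Klrb1c, Cd79b, Satb1, Alpl, Gfi1, Hk3, Srgn, Clec12a, Irf8, Ms4a6c, Foxo3, Txnip, Ccng2, and the cell markers Cd3e, Adgre1, Cdh5 and Col1a1. Gene positions are from GENCODE M21. The promoters and motifs printed were chosen after the values and a first search were seen; those of Tspo2 and Procr were also read and are not shown. Some genes that the rule names are not reported here.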

Additional observations from a re-analysis of the deposited data

How the results depend on the processing

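Against 2147 genes called, the count was 3987 with only the groups compared, 1160 with the pMT-10 groups only and 912 against a fold of 1.5. With the CMP difference between the same 2 chips subtracted it was 2125, of which 1110 were among the 2147. It ran from 266 (without LSK replicate 1) to 4811 (without either pMT-10 CMP replicate) when a replicate was left out. Of the 266 genes 264, and of the 352 called without LSK replicate 2 348, were among the 2147. The share of calls that were higher in HSC was 56.6%, and 48.9% without either LSK replicate. Without the filter the count was 2896, with DESeq2 2256 and with limma-voom 2211. The large, well-counted differences, 355 in number, became 92 at 8-fold and 185 at 200 counts. No paired analysis was possible because the HSC group has 1 library and its label carries no replicate number.

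Of 190 tested genes that were followed, 129 of 178 called ones lost the call in at least 1 alternative. Some log2 differences changed sign. Irf1, 0.01 with all libraries, was -0.02155 without the filter, -0.01416 with a minimum count of 50, -0.03785 with only the groups compared, -0.04071 with the pMT-10 groups only and -0.08025 to 0.09739 with a replicate left out. H2-Eb1, 0.04, was -4.969e-05 with only the groups compared, -0.003215 with the pMT-10 groups only and -0.2572 to 0.4226 with a replicate left out. Flt3, 0.12, ran from -0.4389 to 1.558 with a replicate left out. With the CMP difference between the same 2 chips subtracted, positive values became negative for Kit (-0.6315), Slamf1 (-0.1899), Flt3 (-0.5252), Hif1a (-0.01312) and Ldha (-0.1685). Negative values became positive for Cdc6 (0.03947), Gzmb (1.383), H2-DMa (1.224), Isg20 (0.3999), Zbp1 (2.383), Elane (2.07), Ifngr2 (0.2833), Csf2rb (2.371), Csf2rb2 (3.752), Gbp7 (0.1661) and Irgm1 (0.103). The cause was not tested, and strain, transgene and sex-linked counts differ with the chip in that value.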
